A study of Mus musculus with 6 samples.

Results

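The subcortical maternal complex was followed through 6 genes, Nlrp5, Ooep, Tle6, Khdc3, Padi6 and Zbed3, each matched by its gene symbol among the 47728 gene rows of each of 4 tables. All 6 had a row in every table, and all 6 passed the minimum on low values used below. There were 4 groups. Kdm1aZp3 oocytes (3 libraries) were ovulated eggs of LSD1 FL/FL, ZP3Cre+ females, in which the Kdm1a gene, encoding the histone demethylase LSD1/KDM1A, is deleted by a Cre recombinase that the Zp3 promoter drives in growing oocytes. Kdm1aZp3 M-Z+ 2C embryos (3 libraries, embryonic day 1.5) were 2-cell embryos of such females mated with wild type CB6 males, so that the egg lacked KDM1A and the father brought an intact allele. Control oocytes and control 2C embryos came from an earlier study. They are called wt in the submission and Kdm1a fl/fl in the paper's text, so whether they carried the floxed alleles is not settled. Genotype and study of origin cannot be told apart in any contrast of a Kdm1aZp3 group with a control group. Oocyte and 2C libraries of the mutant were made with different kits, so the kit cannot match in both of their contrasts with control oocytes. The part of the kits was not tested. Embryos or eggs of a litter were lysed together, females were sexually mature and superovulated in the mutant embryo collections, and ages in weeks were not stated.

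The complex is a set of oocyte proteins that lies beneath the cell cortex of the egg and of the cleaving embryo. Its genes are transcribed in the growing oocyte, and their products are laid down as a maternal store. In mice, females without NLRP5 (MATER), OOEP (FLOPED) or TLE6 give embryos that stop in the first cleavages, which is why these are called maternal-effect genes. OOEP and KHDC3 (FILIA) are small proteins with a KH domain, a fold that in other proteins binds RNA, and TLE6 belongs to the Groucho family of co-repressors. PADI6, of the peptidylarginine deiminase family, is needed for the fibrous lattices of the egg cytoplasm, and ZBED3, a zinc finger protein, is a later described member. After fertilization most stored transcripts are broken down while the embryo's own genome is switched on, a handover called the maternal-to-zygotic transition.

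The promoters of 4 genes are shown because their genes carry the contrasts described below: Padi6 and Ooep had the largest differences between the 2C groups, Nlrp5 was near the oocyte level in Kdm1aZp3 M-Z+ 2C embryos, and Khdc3 ran against the others. Each is 300 bases of RefSeq sequence of GRCm38.p6, 250 before the transcription start and 50 from it on, written 5′ to 3′ on the gene's strand. Capitals mark matches, on either strand, to CANNTG (the E-box, the letters to which basic helix-loop-helix factors such as FIGLA bind) and to TAATTG (to which homeobox factors such as NOBOX bind); TAATTG reads CAATTA on the opposite strand.
Padi6: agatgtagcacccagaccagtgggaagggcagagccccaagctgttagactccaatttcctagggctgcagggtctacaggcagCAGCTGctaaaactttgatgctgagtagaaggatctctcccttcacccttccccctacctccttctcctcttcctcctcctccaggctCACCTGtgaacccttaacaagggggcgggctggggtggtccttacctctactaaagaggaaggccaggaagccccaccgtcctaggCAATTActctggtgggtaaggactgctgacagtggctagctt
Ooep: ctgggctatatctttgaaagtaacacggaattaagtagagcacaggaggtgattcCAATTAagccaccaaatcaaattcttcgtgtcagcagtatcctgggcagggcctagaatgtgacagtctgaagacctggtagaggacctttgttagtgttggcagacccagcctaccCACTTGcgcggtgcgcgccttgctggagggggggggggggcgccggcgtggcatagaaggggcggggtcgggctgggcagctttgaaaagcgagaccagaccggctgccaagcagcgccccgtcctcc
Nlrp5: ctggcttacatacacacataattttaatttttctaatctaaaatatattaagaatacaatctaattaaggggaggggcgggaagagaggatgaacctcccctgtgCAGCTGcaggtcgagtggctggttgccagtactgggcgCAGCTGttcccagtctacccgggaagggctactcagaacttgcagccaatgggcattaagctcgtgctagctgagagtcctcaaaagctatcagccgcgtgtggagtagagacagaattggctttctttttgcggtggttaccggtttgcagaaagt
Khdc3: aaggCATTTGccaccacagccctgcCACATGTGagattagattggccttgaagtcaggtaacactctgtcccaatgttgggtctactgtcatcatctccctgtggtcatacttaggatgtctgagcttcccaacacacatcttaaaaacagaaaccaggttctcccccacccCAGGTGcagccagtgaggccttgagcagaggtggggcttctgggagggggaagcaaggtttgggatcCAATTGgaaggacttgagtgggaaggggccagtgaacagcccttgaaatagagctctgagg
The Padi6 window was chr4:140742594-140742893 on the minus strand, the Ooep window chr9:78378539-78378838 on the minus strand, the Nlrp5 window chr7:23385639-23385938 on the plus strand and the Khdc3 window chr9:73102148-73102447 on the plus strand. The Khdc3 window lies within the gene as GENCODE draws it, since the RefSeq start used is 562 bases from the GENCODE start, and 2 of its E-box matches overlap each other. The Ooep start used lies 137 bases inside the gene as GENCODE draws it, so the E-box match of Ooep falls within that gene. CANNTG was found in the promoters of all 6 genes and in 72.3% of the 32851 promoters of the RefSeq table. TAATTG was found in 2 of the 6, Ooep upstream of the start and Padi6 just after it, and in 8.00% of all promoters. TATAAA, a common core of the TATA box, was in 0 of the 6 and in 13.6% of all promoters. Other forms of the TATA box were not searched, so its absence from these genes is not shown. A match describes these letters and is not evidence that a factor binds there.

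The genes lie on 5 chromosomes of GRCm38, and all are annotated as protein coding. Nlrp5 is at chr7:23385889-23441922 on the plus strand, Ooep at chr9:78376109-78378725 on the minus strand and Tle6 at chr10:81590904-81601073 on the minus strand. Khdc3 is at chr9:73101836-73104438 on the plus strand, Padi6 at chr4:140727355-140742643 on the minus strand and Zbed3 at chr13:95323612-95337841 on the plus strand. Khdc3 overlaps the gene model Gm20509, which covers 790 of its 2050 exonic bases. Reads that matched several genes were shared out with low weights by the authors, so the values of Khdc3 may be divided with Gm20509 and are uncertain for that reason. Small annotated genes also overlap Nlrp5 (Gm25196) and Zbed3 (Snora47 and Gm22661).

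Each table gives 1 mean normalized expression value per group, made by the authors, with no value per library. There is therefore no SD and no test in any comparison below, no replicate check of any difference, and library depth is unknown. Differences are log2 ratios of (mean + 1), called higher or lower when they reached 2-fold, and they are set beside the share of all gene rows that reached 2-fold in that direction, counting the rows whose mean was 10 or more in 1 of the groups or both. Means are scaled separately in each table (the control oocyte mean of a gene in the oocyte table was 0.657 times that in the table of mutant embryos against oocytes, as a median over genes), so levels were compared within a table only. The 3 tables with 2C embryos name their columns only a and b, and they were read here against the assignment that the study's legends state, on the grounds given under the processing of the data. In embryos, less RNA per cell and fewer cells cannot be told apart in such relative values.

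The labels were first checked on Kdm1a itself, which had a mean of 6.37 in Kdm1aZp3 oocytes and 921 in control oocytes. It was 14.5 in Kdm1aZp3 M-Z+ 2C embryos and 1254 in control 2C embryos. Of 12 oocyte markers, 11 had a mean of 10 or more in an oocyte group, and Zp2, a zona pellucida protein, was 5216 in Kdm1aZp3 oocytes and 2056 in control oocytes. Figla was low, at 11.3 in Kdm1aZp3 oocytes and 18.7 in control oocytes, and Sohlh1 was listed at 0 in both. Of the 12 rows of markers of the 2-cell stage, 3 reached 10 in an oocyte group, Tcstv1 among them at 96.7 in Kdm1aZp3 oocytes and 83.2 in control oocytes, and 11 reached it in a 2C group. Zfp352 was listed at 0 in the oocyte groups of the oocyte table and was 1064 in Kdm1aZp3 M-Z+ 2C embryos and 2237 in control 2C embryos. In control 2C embryos over control oocytes 10 of these rows were higher and 1 lower, Tcstv1, at 46.7 in control 2C embryos and 191 in control oocytes.

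In control development, 4 of the 6 genes were lower in 2C embryos than in oocytes and 0 were higher, where 35.0% of all gene rows were lower and 40.8% higher. Padi6 had a mean of 218 in control 2C embryos and 10640 in control oocytes, a log2 difference of −5.60, which put it at 2.05% of the oocyte level and 425th from the lowest among 16674 gene rows. Tle6 was 262 in control 2C embryos and 4037 in control oocytes (log2 difference −3.94). Nlrp5, the scaffold-forming member of the NLR protein family, was 1624 in control 2C embryos and 18998 in control oocytes (−3.55). These 3 genes stood at 2.05% to 8.55% of the oocyte level.

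Ooep was 3488 in control 2C embryos and 11645 in control oocytes, a log2 difference of −1.74, and so stood at 30.0% of the oocyte level. Zbed3 was 91130 in control 2C embryos and 151131 in control oocytes (−0.73), within 2-fold. Khdc3 was low in both, at 118 in control 2C embryos and 101 in control oocytes (0.22, or −0.01 with means scaled to the same sum). The overlapping Gm20509 did not go with Khdc3 here and was lower in control 2C embryos (−1.16). Over the complex the level at the 2C stage relative to the egg thus ranged from that of Padi6, at the low end, to those of Zbed3 and Khdc3, which did not reach 2-fold.

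The median log2 difference of the 6 genes was −2.64, beside 0.21 over all gene rows. Among rows whose mean was 200 or more in control oocytes, a minimum chosen after the data were seen and met by all the genes but Khdc3, 49.2% were lower and the median was −0.96.

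Loss of KDM1A in the growing oocyte was set against control oocytes to ask whether the store itself differed before fertilization. Of the 6 genes, 1 was higher and 0 lower in Kdm1aZp3 oocytes, against 19.4% higher and 15.6% lower over all gene rows. Nlrp5 had a mean of 10206 in Kdm1aZp3 oocytes and 8191 in control oocytes (log2 difference 0.32). Ooep was 6842 in Kdm1aZp3 oocytes and 5039 in control oocytes (0.44), and Tle6 was 2493 in Kdm1aZp3 oocytes and 1717 in control oocytes (0.54). All 3 were within 2-fold and on the higher side in the mutant.

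Padi6 was 5586 in Kdm1aZp3 oocytes and 4563 in control oocytes (0.29). Zbed3 was 74841 in Kdm1aZp3 oocytes and 65629 in control oocytes (0.19), the smallest difference of the 6. Khdc3 had a mean of 130 in Kdm1aZp3 oocytes and 43.5 in control oocytes, a log2 difference of 1.55. Only Khdc3 reached 2-fold, and the overlapping Gm20509 was higher beside it, at 23.7 in Kdm1aZp3 oocytes and 10.7 in control oocytes.

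The median of the 6 in oocytes was 0.38, beside 0.02 over all rows and −0.15 over rows whose mean was 200 or more in control oocytes. Cyp19a1, an aromatase of granulosa cells, was 4237 in Kdm1aZp3 oocytes and 957 in control oocytes, and it made up most of the summed level of 10 cumulus and granulosa markers, 4275 in Kdm1aZp3 oocytes and 977 in control oocytes. Ptgs2, a cumulus marker, was 26.1 in Kdm1aZp3 oocytes and 1.30 in control oocytes. These 2 were the only markers of the list whose mean reached 10, and both were higher in Kdm1aZp3 oocytes. Of the 10 markers, 6 were listed at 0 in Kdm1aZp3 oocytes and 3 in control oocytes, and Amh and Foxl2 were at 0 in both groups. The part of other cells in these differences was not tested.

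**Figure D1:**
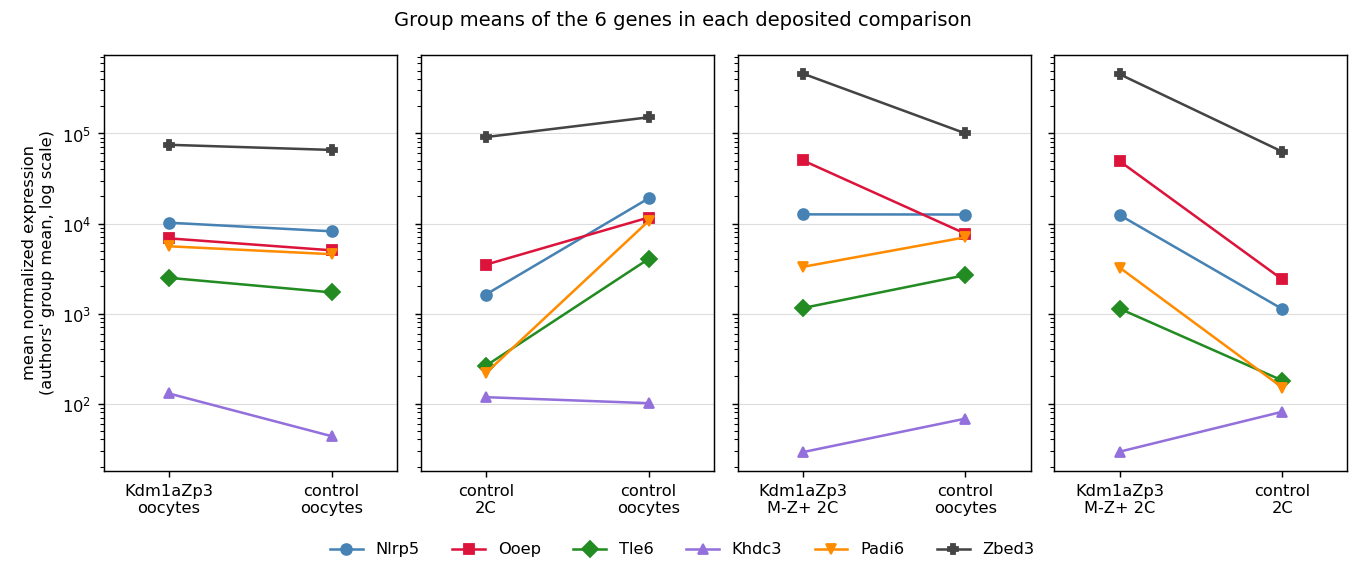
Group means of the 6 genes in the 4 comparisons, 1 panel each, as the authors' mean normalized expression on a log scale; lines join the means of a gene and there are no error bars because each group has 1 value. The genes run nearly flat between Kdm1aZp3 oocytes and control oocytes except Khdc3 (130 and 43.5), and 5 of the 6 stand higher in Kdm1aZp3 M-Z+ 2C embryos than in control 2C embryos.

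Embryos that developed from KDM1A-deficient eggs were next set against control oocytes, which puts the 2C level of each transcript beside the level in the egg. Of the 6 genes, 2 were higher (Ooep and Zbed3) and 3 lower (Tle6, Khdc3 and Padi6) in Kdm1aZp3 M-Z+ 2C embryos, against 28.1% higher and 32.5% lower over all gene rows. Nlrp5 had a mean of 12637 in Kdm1aZp3 M-Z+ 2C embryos and 12577 in control oocytes, a log2 difference of 0.01. Padi6 was 3299 in Kdm1aZp3 M-Z+ 2C embryos and 7032 in control oocytes (−1.09), and Tle6 was 1150 in Kdm1aZp3 M-Z+ 2C embryos and 2669 in control oocytes (−1.21). Padi6 and Tle6 thus stood at 46.9% and 43.1% of the oocyte level, where control 2C embryos had 2.05% and 6.50% in their own table.

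Ooep was 50317 in Kdm1aZp3 M-Z+ 2C embryos and 7699 in control oocytes (log2 difference 2.71). Zbed3 was 462920 in Kdm1aZp3 M-Z+ 2C embryos and 100167 in control oocytes (2.21). Both therefore exceeded the oocyte level as normalized means, at 654% and 462% of it. Such means are relative, so whether the amount per embryo exceeded that per egg was not tested. Khdc3 was 28.9 in Kdm1aZp3 M-Z+ 2C embryos and 68.1 in control oocytes (−1.21).

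The median of the 6 against control oocytes was −0.54, beside −0.14 over all rows. Over rows whose mean was 200 or more in control oocytes the median was −0.48, with 11.1% higher and 34.2% lower. Padi6 fell short of 2-fold at −0.95 both when centred on the median of all rows and when means were scaled to the same sum, which left 2 genes lower. At a 4-fold minimum none of the 3 lower genes was counted, while Ooep and Zbed3 were.

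**Figure D2:**
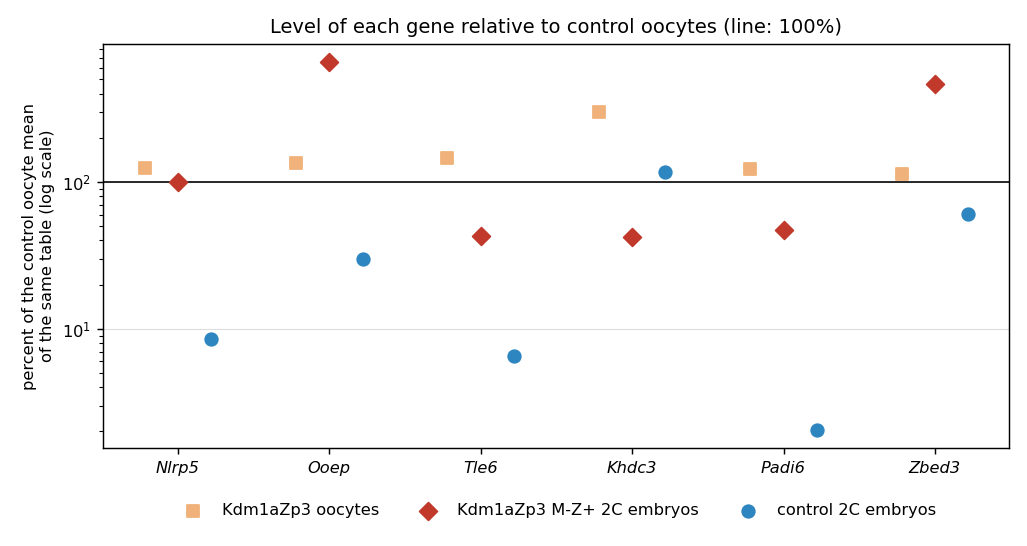
Mean of each gene as a percent of the control oocyte mean in the same table (log scale), with Kdm1aZp3 oocytes as squares, Kdm1aZp3 M-Z+ 2C embryos as diamonds and control 2C embryos as circles; the line marks 100%. Diamonds stand above circles for all genes but Khdc3, with Padi6 at 46.9% and 2.05% and Ooep at 654% and 30.0%.

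In the direct comparison of the 2C groups, 5 of the 6 genes were higher and 1 was lower in Kdm1aZp3 M-Z+ 2C embryos, against 32.3% higher and 42.1% lower over all gene rows. Padi6 had a mean of 3243 in Kdm1aZp3 M-Z+ 2C embryos and 151 in control 2C embryos, a log2 difference of 4.42. Ooep was 49311 in Kdm1aZp3 M-Z+ 2C embryos and 2391 in control 2C embryos (4.37). Nlrp5 was 12429 in Kdm1aZp3 M-Z+ 2C embryos and 1122 in control 2C embryos (3.47). These 3 were each more than 8-fold higher in the mutant.

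Zbed3 was 455201 in Kdm1aZp3 M-Z+ 2C embryos and 62719 in control 2C embryos (2.86). Tle6 was 1134 in Kdm1aZp3 M-Z+ 2C embryos and 180 in control 2C embryos (2.65). Khdc3 ran the other way, with 29.2 in Kdm1aZp3 M-Z+ 2C embryos and 81.2 in control 2C embryos (−1.44), as did Gm20509, with 3.25 in Kdm1aZp3 M-Z+ 2C embryos and 7.06 in control 2C embryos. Both rows were low, and Khdc3 had the lowest mean per kilobase of the 6 genes in each group.

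The median of the 6 was 3.16, beside −0.37 over all gene rows. Rows abundant in oocytes leaned to the higher side: of those whose mean was 200 or more in control oocytes, 37.1% were higher and 21.1% lower, with a median of 0.40. Padi6 had a larger difference than 93.8% of all rows, Ooep than 93.5% and Nlrp5 than 88.8%. When the difference was taken through control oocytes, as the difference between the 2C groups' own comparisons with them, it was 4.51 for Padi6, 4.45 for Ooep, 3.55 for Nlrp5, 2.94 for Zbed3, 2.72 for Tle6 and −1.43 for Khdc3. The control oocytes cancel on this route up to the scaling of the tables, so it is no separate evidence for the direct values. Markers of other cells differed too. Of the 10 cumulus and granulosa markers, 3 were higher and 0 lower: Cyp19a1 was 1488 in Kdm1aZp3 M-Z+ 2C embryos and 5.55 in control 2C embryos, Ptgs2 was 48.6 in Kdm1aZp3 M-Z+ 2C embryos and 0.377 in control 2C embryos, and Vcan was 20.4 in Kdm1aZp3 M-Z+ 2C embryos and 7.76 in control 2C embryos. Another 5 of the 10 were listed at 0 in each 2C group, Amh, Foxl2 and Fshr among them, and the sum of the 10 was 1558 in Kdm1aZp3 M-Z+ 2C embryos and 18.4 in control 2C embryos. Of the oviduct markers 2 were lower, Ovgp1 (−6.27) and Foxj1 (−2.84), as was 1 blood marker, Alas2 (−2.16). The summed level of 3 oviduct markers was 2.12 in Kdm1aZp3 M-Z+ 2C embryos and 165 in control 2C embryos, that of the blood markers was 10.8 in Kdm1aZp3 M-Z+ 2C embryos and 28.2 in control 2C embryos, and that of the sperm markers was 0 in Kdm1aZp3 M-Z+ 2C embryos and 0.523 in control 2C embryos. The part of these markers in the result was not tested.

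**Figure D3:**
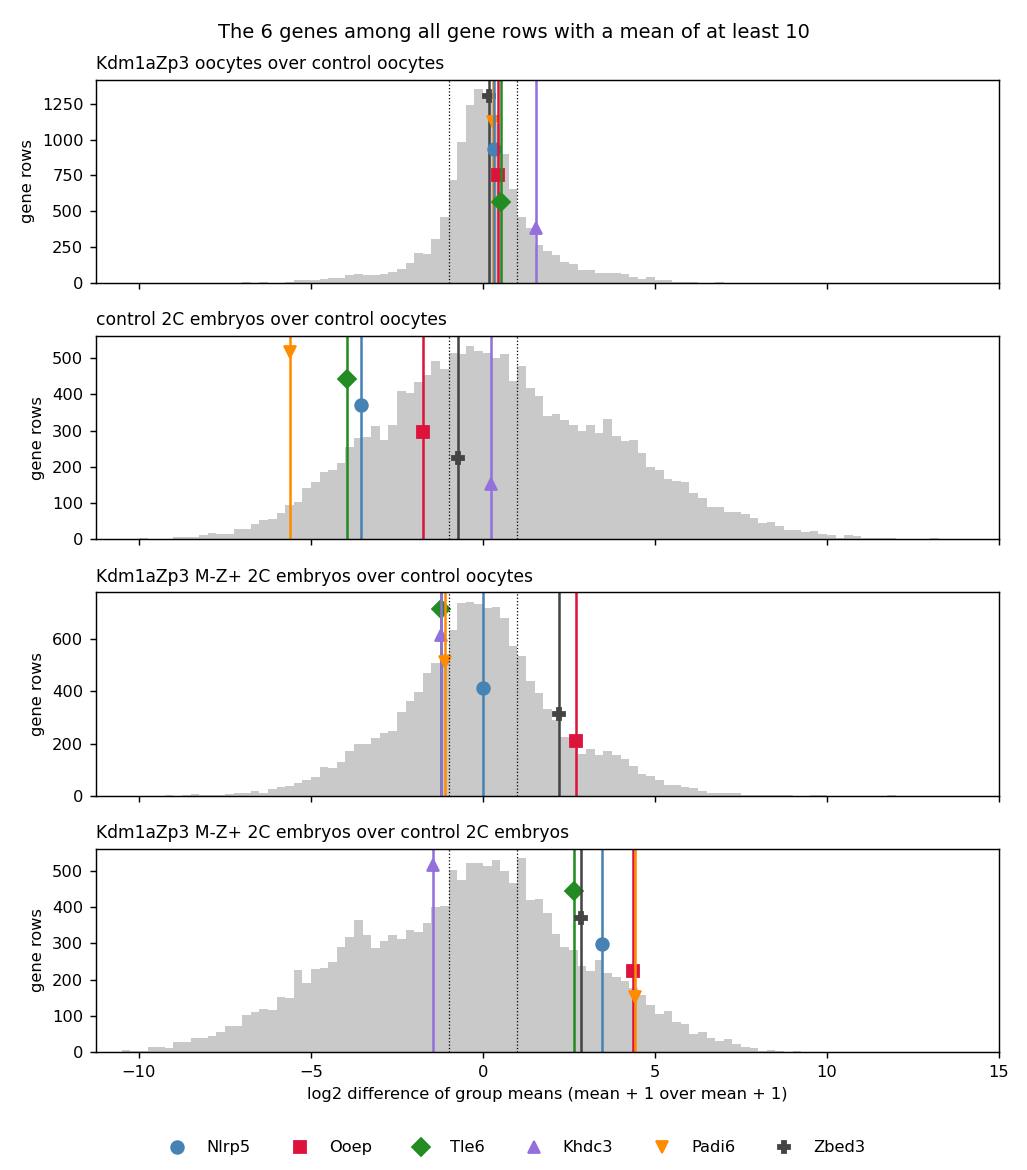
Histograms of the log2 difference of group means over all gene rows whose mean reached 10, 1 panel per comparison, with the 6 genes as coloured lines and symbols (symbol height has no meaning) and dotted lines at 2-fold. In oocytes 5 of the genes lie between 0.19 and 0.54 and Khdc3 at 1.55, and the genes spread from −5.60 to 0.22 in control 2C embryos over control oocytes.

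Removing the control oocytes from both sides gave the step between mutant stages, Kdm1aZp3 M-Z+ 2C embryos over Kdm1aZp3 oocytes, although oocyte and 2C libraries of the mutant were made with different kits. The log2 difference was 2.27 for Ooep and 2.02 for Zbed3. It was −0.31 for Nlrp5, −1.38 for Padi6, −1.75 for Tle6 and −2.76 for Khdc3. The 6 genes did not share a direction across this step, whereas in controls 5 of the 6 had a negative difference and Khdc3 one of 0.22.

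Levels were compared between genes only per kilobase of exonic sequence, using the GENCODE exons. Zbed3 was the most abundant of the 6 in every group, at 33546 per kilobase in Kdm1aZp3 oocytes and 29417 per kilobase in control oocytes, where it ranked 2nd of 35417 genes ranked in each. Ooep followed with 3200 per kilobase in Kdm1aZp3 oocytes and 2357 per kilobase in control oocytes. The order after it was Padi6, Nlrp5, Tle6 and Khdc3 in both oocyte groups.

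In the 2C groups Nlrp5 stood ahead of Padi6. Ooep ranked 8th of the 35417 genes in Kdm1aZp3 M-Z+ 2C embryos, at 23064 per kilobase, and 405th in control 2C embryos, at 1118 per kilobase. Padi6 ranked 362nd in Kdm1aZp3 M-Z+ 2C embryos and 5902nd in control 2C embryos. Zbed3 alone made up 3.47% of the summed means of all gene rows in Kdm1aZp3 M-Z+ 2C embryos, against 0.350% in control 2C embryos. The small nucleolar RNA Snora47, annotated within Zbed3, was 55.3 in Kdm1aZp3 M-Z+ 2C embryos and 8.16 in control 2C embryos, but 252 in Kdm1aZp3 oocytes and 552 in control oocytes. Means scaled to the same sum over all gene rows, which takes up such shares, left the sign of the difference as it was for the 6 genes in each comparison, except for Khdc3 in control 2C embryos over control oocytes, which was then −0.01.

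NLRP2 and NLRP4F, relatives of NLRP5, and UHRF1, a partner of the DNA methyltransferase DNMT1, have been reported with the complex or in its lattices. Nlrp2 had a mean of 1166 in Kdm1aZp3 oocytes and 904 in control oocytes, and 1103 in Kdm1aZp3 M-Z+ 2C embryos and 120 in control 2C embryos (log2 difference 3.19). Nlrp4f was 6863 in Kdm1aZp3 oocytes and 8026 in control oocytes, and 11789 in Kdm1aZp3 M-Z+ 2C embryos and 1354 in control 2C embryos (3.12). Uhrf1 was 4745 in Kdm1aZp3 oocytes and 6435 in control oocytes, and 3951 in Kdm1aZp3 M-Z+ 2C embryos and 253 in control 2C embryos (3.96). All 3 partners were within 2-fold in oocytes, lower when control 2C embryos were set against control oocytes (−5.35 to −3.21) and higher in Kdm1aZp3 M-Z+ 2C embryos than in control 2C embryos. The pseudogene Nlrp5-ps, whose name marks it as a copy of Nlrp5, was 42.2 in Kdm1aZp3 M-Z+ 2C embryos and 94.6 in control 2C embryos.

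The listed family relatives of Ooep, Khdc3, Tle6, Zbed3 and Padi6 did not show the pattern of the partners as a group. Of the relatives of Nlrp5, only Nlrp2, Nlrp4f and the pseudogene Nlrp5-ps, given above, were looked at. Among the KH-domain relatives of Ooep and Khdc3, Khdc1b was 32639 in Kdm1aZp3 M-Z+ 2C embryos and 8973 in control 2C embryos (1.86), and Khdc1c was 3894 in Kdm1aZp3 M-Z+ 2C embryos and 2301 in control 2C embryos (0.76). Khdc1a was 2269 in Kdm1aZp3 M-Z+ 2C embryos and 2219 in control 2C embryos (0.03). Dppa5a, which lies 7932 bases from Ooep, was 37.6 in Kdm1aZp3 M-Z+ 2C embryos and 1751 in control 2C embryos (−5.50), the opposite direction from its neighbour.

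Of the Groucho family genes beside Tle6, Tle3 was 5.61 in Kdm1aZp3 M-Z+ 2C embryos and 159 in control 2C embryos (−4.60), and Tle1 was 20.0 in Kdm1aZp3 M-Z+ 2C embryos and 52.0 in control 2C embryos (−1.34). Tle4 was 2002 in Kdm1aZp3 M-Z+ 2C embryos and 2098 in control 2C embryos (−0.07). Tle2 and Aes were within 2-fold (0.10 and −0.20). The zinc finger relatives of Zbed3 were lower, Zbed4 at 675 in Kdm1aZp3 M-Z+ 2C embryos and 3294 in control 2C embryos (−2.28) and Zbed6 at 48.9 in Kdm1aZp3 M-Z+ 2C embryos and 1173 in control 2C embryos (−4.56).

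The deiminase genes beside Padi6 had low means. Padi2 was 27.8 in Kdm1aZp3 M-Z+ 2C embryos and 4.71 in control 2C embryos, and Padi4 was 16.8 in Kdm1aZp3 M-Z+ 2C embryos and 15.6 in control 2C embryos. In oocytes they ran both ways: Padi3 was listed at 0 in Kdm1aZp3 oocytes and was 40.6 in control oocytes, while Padi4 was 31.8 in Kdm1aZp3 oocytes and 0.319 in control oocytes. Padi3 was listed at 0 in both 2C groups.

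The complex was also set beside 12 other maternal-effect genes, of which 5 were higher and 1 lower in Kdm1aZp3 M-Z+ 2C embryos than in control 2C embryos, with a median of 0.51, beside 32.3% higher and 42.1% lower over all gene rows. Zar1, an RNA-binding factor of the egg, was 1537 in Kdm1aZp3 M-Z+ 2C embryos and 30.9 in control 2C embryos (5.59). Npm2, a histone chaperone, was 1655 in Kdm1aZp3 M-Z+ 2C embryos and 293 in control 2C embryos (2.49), and Zfp57, an imprint regulator, was 51667 in Kdm1aZp3 M-Z+ 2C embryos and 5613 in control 2C embryos (3.20). Trim28, the co-repressor that works with ZFP57, was 966 in Kdm1aZp3 M-Z+ 2C embryos and 9446 in control 2C embryos (−3.29). Dppa3 (0.58) and Hsf1 (0.44) were within 2-fold. In oocytes 0 of the 12 were higher and 2 lower, beside 19.4% and 15.6% of all gene rows.

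Of the oocyte markers, 8 of 11 measured were higher and 1 lower in Kdm1aZp3 M-Z+ 2C embryos than in control 2C embryos, with a median of 2.92, beside 3.16 for the complex and the 32.3% higher and 42.1% lower of all gene rows. Gdf9, an oocyte growth factor, was 14647 in Kdm1aZp3 M-Z+ 2C embryos and 441 in control 2C embryos (5.05), and its relative Bmp15 was 25015 in Kdm1aZp3 M-Z+ 2C embryos and 2958 in control 2C embryos (3.08). Of the zona genes, Zp2 was higher (2.92), Zp1 within 2-fold (0.79) and Zp3, whose promoter drives the Cre, lower (−1.13). Mos, the kinase that holds the egg in meiosis, was 40.2 in Kdm1aZp3 M-Z+ 2C embryos and 68.2 in control 2C embryos (−0.75). Markers of the 2C stage ran the other way, with 1 of 11 rows higher and 9 lower and a median of −3.31. In Kdm1aZp3 oocytes over control oocytes, 4 of 11 oocyte markers measured were higher and 0 lower, beside 19.4% and 15.6% of all gene rows. Their median was 0.13, and that of the complex was 0.38.

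**Figure D4:**
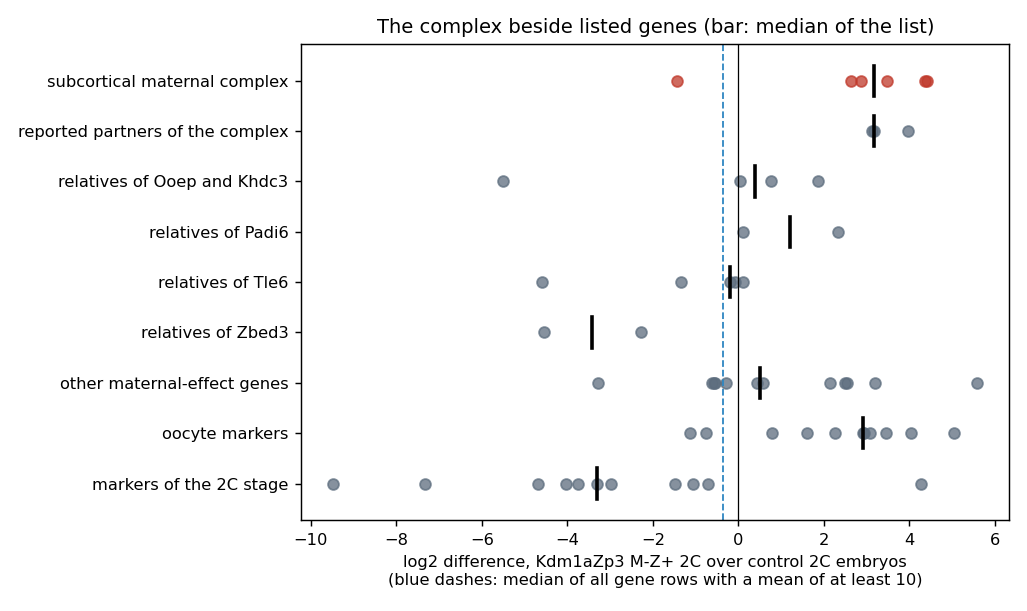
Log2 difference of group means, Kdm1aZp3 M-Z+ 2C embryos over control 2C embryos, for each gene whose mean reached 10 in the complex and in 8 other lists; points are genes, bars are list medians, and the dashed line is the median of all gene rows (−0.37). The complex (median 3.16) and the oocyte markers (2.92) lie to the right, and the markers of the 2C stage (−3.31) to the left.

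The genes with the pattern most like the middle of the complex were sought among 4872 genes whose mean was 200 or more in control oocytes, by the Euclidean distance of 3 log2 differences (Kdm1aZp3 oocytes, control 2C embryos and Kdm1aZp3 M-Z+ 2C embryos, each over control oocytes) to the medians of the 6 genes. The 6 closest were Gpr149, Fh1, Akap2, Cyb5r3, Ak4 and Enox1, at distances of 0.148, 0.151, 0.211, 0.234, 0.265 and 0.282. Gpr149, the closest, was 729.5 in Kdm1aZp3 M-Z+ 2C embryos and 168 in control 2C embryos. The members ranked were farther from the median of the 6: Nlrp5 came 409th, Tle6 855th, Padi6 3024th, Zbed3 3424th and Ooep 3449th. Khdc3 was below the minimum of 200 and was not ranked, although it counted in the medians. The 3 differences share the control oocytes, and the 6 genes of the complex were spread widely around their middle.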

How the data were processed

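Gene expression was measured by RNA-seq in 6 libraries of Kdm1aZp3 ovulated eggs and M-Z+ 2C embryos and compared with control oocytes and 2C embryos of an earlier study. The deposited means are normalized scores: the authors aligned first reads trimmed to 50 bases to mm10 genes and repeats, weighted down reads with several gene loci, median normalized in R and averaged within groups. Cufflinks and DESeq are listed in the submitters' processing notes, without versions. The deposited tables also hold the authors' fold changes, p-values and q-values, which were not used. There were 0 columns of values per library left unused, so no test, error or depth could be given.

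Columns of the tables with 2C embryos carry no group name and were read with column b as the first-named group. The study's legends state the opposite assignment for these 3 tables, so every direction given here for 2C embryos is the reverse of what those legends would give. With the reading used, Kdm1a was low in the mutant column of both tables with a mutant 2C group. For mutant 2C embryos the paper's text gives changes, labelled there as fold, of −3.3 for Trim28, +3.2 for Zfp57, +0.58 for Dppa3 and +2.1 for Dnmt1. It also gives a decrease for Tet1, which is not compared here. The reading used gave log2 differences to control 2C embryos of −3.29, 3.20, 0.58 and 2.14, the same directions as in that text. The table of control 2C embryos over control oocytes has no mutant column and Kdm1a cannot settle it. There and elsewhere the control oocyte means of different tables had the same order of genes (Spearman rho from 0.9999 to 1.000, a description across genes).

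Log2 differences used a pseudocount of 1 and rows whose mean was 10 or more in either group, and counts a 2-fold minimum. Groups were taken from the sample titles. The members and the 12 lists beside them were chosen with earlier results of these data known. Of 78 listed symbols, Zbed5 and Hbb-b1 were not matched. Named were the 6 members, the reported partners, relatives with a mean of at least 10 in any group (by value or by count), the first 6 maternal-effect genes and oocyte markers in list order, Kdm1a, and the 6 genes nearest the members' median. Zfp352, Tcstv1, Figla, Sohlh1, Cyp19a1, Ptgs2, Vcan, Ovgp1, Foxj1, Alas2, Gm20509, Snora47, Nlrp5-ps and the markers at 0 were named after their values were seen. Positions and exon lengths came from GENCODE M21 and promoters from RefSeq GRCm38.p6 (the start nearest the GENCODE start). Alternatives were pseudocounts of 10 and 0.1, a minimum mean of 50 or none, a 4-fold minimum, centring on the median, equal sums, rows with unique symbols, and the difference through control oocytes. The calculation was tested on group means multiplied by known factors without noise, which checks the arithmetic only. Python 3.11.15, numpy 2.4.6, pandas 2.3.3 and matplotlib 3.10.9 were used.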

Additional observations from a re-analysis of the deposited data

How the results depend on the processing

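No paired analysis was possible because the tables hold 1 mean per group and no value per library, and for the same reason no library could be left out. All 102 log2 differences of the 6 genes under other pseudocounts, centring, equal sums and the route through control oocytes moved by less than 1.5-fold, and 101 kept their sign. The exception was Khdc3 in control 2C embryos over control oocytes, at −0.01 with equal sums against 0.22. Small moves were largely built in, since these settings re-use the same group means and centring shifts every gene of a comparison alike. The count therefore says nothing about variation between libraries. With a 4-fold minimum, 0 of 6 genes passed in Kdm1aZp3 oocytes over control oocytes (0 higher, where 1 was at 2-fold), 2 passed in Kdm1aZp3 M-Z+ 2C embryos over control oocytes (0 lower, where 3 were at 2-fold) and 0 were lower in Kdm1aZp3 M-Z+ 2C embryos than in control 2C embryos (1 at 2-fold). With a mean of at least 200 in control oocytes, chosen after seeing the data, Khdc3 was left out, so 0 genes passed in Kdm1aZp3 oocytes over control oocytes (0 higher) and 0 were lower in Kdm1aZp3 M-Z+ 2C embryos than in control 2C embryos. Centring or equal sums also ended the lower call of Padi6 in Kdm1aZp3 M-Z+ 2C embryos over control oocytes (−0.95 under each). No other count of the 6 genes moved by over 1.5 times. The background moved too: in Kdm1aZp3 oocytes over control oocytes 8.79% of rows were higher and 6.26% lower at 4-fold, and 7.53% and 6.87% of all 47728 rows were higher and lower at 2-fold without a minimum on low values. The medians of all rows were 0.02, 0.21, −0.14 and −0.37 in the order of the 4 tables above (oocytes, control 2C over oocytes, mutant 2C over oocytes, and mutant over control 2C embryos). Library depth is unknown, and Khdc3 had the lowest means, 130 or less, so its values are the least certain.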
